A study of Homo sapiens with 6 samples.

Results

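Epithelial-mesenchymal transition (EMT) is the programme by which epithelial cells lose cell-cell junctions and gain traits of mesenchymal cells. It is driven by a small set of repressing transcription factors, among them the SNAI, ZEB and TWIST families, which bind E-box sequences in promoters such as that of E-cadherin. The epithelial state is held by the transcription factors GRHL2 and OVOL1 and by the splicing factors ESRP1 and ESRP2, which set epithelial exon choices. Vimentin (VIM), an intermediate filament protein, is the usual readout of the mesenchymal end.

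Of these genes 10 were listed by symbol (SNAI1, SNAI2, ZEB1, ZEB2, TWIST1, GRHL2, OVOL1, ESRP1, ESRP2 and VIM) out of 31122 rows of the count table, and 8 had a row in both the count and the FPKM table. SNAI2 and ZEB2 were not analysed here. TWIST1 had too few counts for a test, which left 7 tested genes. The genes were examined in polyadenylated RNA from 6 cultures of MDA-MB-468, an established human line of basal-like, triple-negative breast cancer. The first group held 3 cultures labelled as the unedited parental line (genotype label WT, titles W1, W2 and W3) from wells of 1 plate. The second held 3 populations labelled GPR52 KO, which the labels describe as made by CRISPR-Cas9 with a single guide (sgRNA1) to the gene of the orphan receptor GPR52. These are called KO-labelled 1, 2 and 3 here, for the titles 11, 12 and OG. Whether a KO-labelled population is a clone or a pool, and how the 3 relate to each other, is not given in the labels. By their labels the wells share 1 parental line, and no non-targeting control was analysed here, so p-values measure only the spread between these samples, which may be technical.

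Library totals were 25637794 to 31692454 counts, so that 1 count was worth 0.0321 to 0.0397 CPM, the count scaled to library size. The GPR52 transcript went against the label, with 9, 1 and 0 counts in parental-labelled libraries and 645, 694 and 724 in KO-labelled ones, so directions below are those of the label and not of GPR52 loss. Whether the labels of the groups were exchanged was not tested, and which libraries come from edited cells is known from the labels alone. Markers of epithelial breast cells were abundant in every library, with a summed level of 12752 to 13107 CPM in parental-labelled and 11373 to 15970 CPM in KO-labelled libraries over 10 genes, of which 3 were called higher and 3 lower. Summed fibroblast markers were at 9.10 to 11.3 CPM and 24.6 to 32.0 CPM over 7 genes, mostly from COL1A1, with COL1A2, LUM and THY1 at 3 counts or fewer over all 6 libraries. Summed blood and endothelial markers were at 29.1 to 38.8 CPM and 3.28 to 5.46 CPM over 7 genes, mostly from CD14, with the T cell gene CD3E at 3 counts or fewer. The part of these shifts in the results below was not tested. In such bulk RNA, fewer cells expressing a gene and less RNA per cell cannot be told apart.

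Levels were first compared between the genes per transcript length, as the authors' FPKM (fragments scaled to transcript length and library size). ESRP1, ESRP2 and GRHL2 stood far above the other regulators in all 6 libraries. ESRP1 had the highest mean over the 6 libraries at 49.5 FPKM, followed by ESRP2 at 32.4 FPKM and GRHL2 at 26.0 FPKM, and the lowest single library among the 3 genes was at 21.5 FPKM. OVOL1 at 2.86, VIM at 2.70 and SNAI1 at 1.33 FPKM came next, and their ranges over libraries overlapped (1.74 to 5.22, 0.655 to 3.77 and 0.570 to 2.72 FPKM). ZEB1 was at 0.126 FPKM, with no library above 0.188 FPKM. TWIST1, a basic helix-loop-helix EMT factor, had 1 count in KO-labelled 3 and none in the other libraries. Its group totals of 0 and 1 count lay under the limit that a count of 0 allows, 3 counts per group or 0.0341 and 0.0367 CPM, so no fold was computed.

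The libraries were then compared by label, and the direction of each value below is KO-labelled over parental-labelled. SNAI1 and OVOL1 were higher and ESRP2 was lower in KO-labelled libraries, while GRHL2, ESRP1, ZEB1 and VIM were not called. The calls were thus 2 higher, 1 lower and 4 not called of 7 tested genes (edgeR quasi-likelihood test, Benjamini-Hochberg adjusted p under 0.05), or 42.9%. Across all 17420 tested genes 40.8% were called, 21.0% higher and 19.8% lower, so the share among the regulators was close to the background. CPM ranges of the groups did not overlap for 3 of the 7, GRHL2, OVOL1 and ESRP2, against 54.4% of all tested genes. The median log2 fold change was -0.08 over the 7 and 0.01 over all tested genes.

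**Figure D1:**
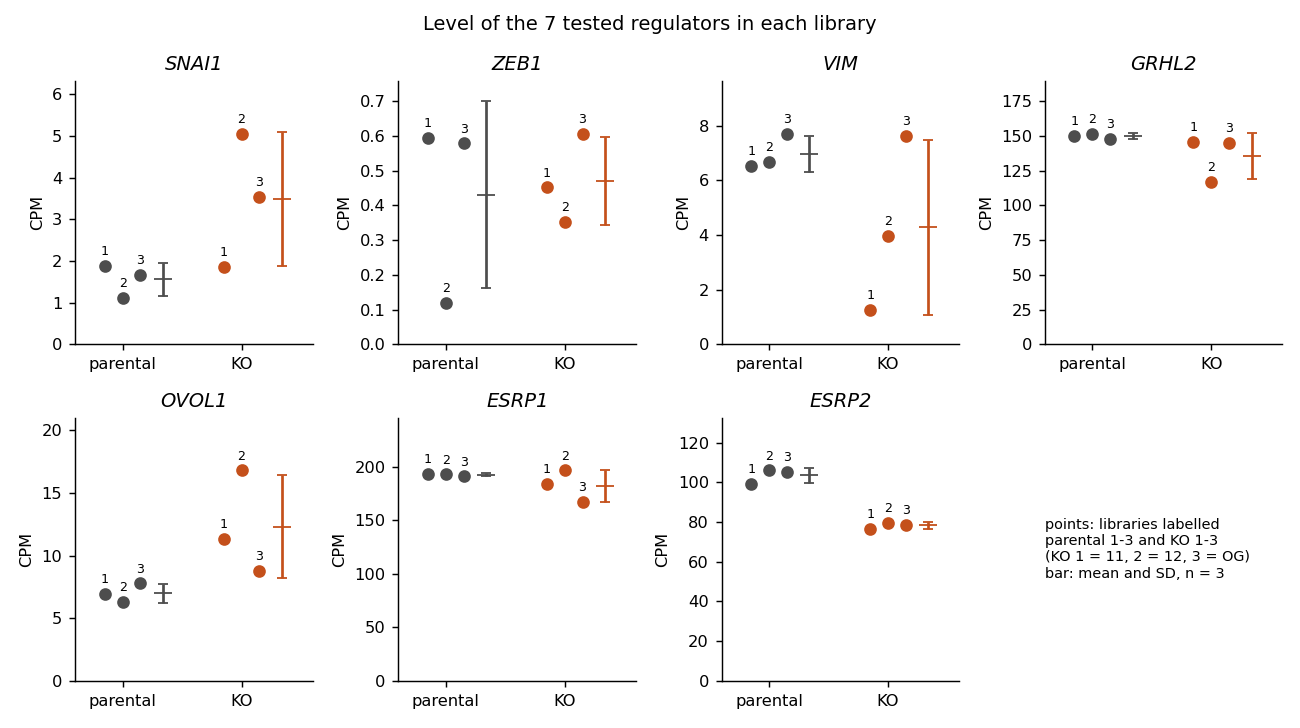
Level in CPM (vertical axes, each from 0) of the 7 tested regulators in the libraries labelled parental 1 to 3 and KO 1 to 3, with the mean and SD of each group (n = 3). ESRP2 sits lower in all 3 KO-labelled libraries, whereas VIM runs from 1.24 to 7.64 CPM among them.

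Among the EMT-inducing factors, SNAI1 is a zinc finger repressor of E-cadherin. Its CPM was 1.88, 1.11 and 1.67 in parental-labelled 1, 2 and 3, and 1.85, 5.06 and 3.53 in KO-labelled 1, 2 and 3. KO-labelled 2 and 3 lay above every parental-labelled library, whereas KO-labelled 1 lay within the parental range, so the groups overlapped. The means were 1.56 ± 0.397 and 3.48 ± 1.61 CPM (SD, n = 3 each). SNAI1 was higher by 1.15 (SE 0.37) on the log2 scale (edgeR adjusted p = 0.0382). The counts behind these values were 28 to 57 per parental-labelled and 49 to 143 per KO-labelled library. The call was lost without parental-labelled 1, 2 or 3 (edgeR adjusted p = 0.0717, 0.121 and 0.104), where the log2 fold change was 1.30, 0.97 and 1.19. Called genes over the whole table fell from 7105 to 4922, 4879 and 5263 in these settings. Without KO-labelled 2 the log2 fold change was 0.78 and the call was also lost (edgeR adjusted p = 0.124). It was lost too with limma voom (adjusted p = 0.0641) and with limma on log2(FPKM + 1) (adjusted p = 0.101).

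ZEB1, a zinc finger and homeodomain repressor held down by the miR-200 family, was close to the limit of detection. Its counts were 18, 3 and 18 in parental-labelled and 12, 10 and 17 in KO-labelled libraries, or 39 in each group. The groups overlapped, and parental-labelled 2 was the lowest of the 6 libraries. The level was 0.431 ± 0.270 and 0.471 ± 0.128 CPM (SD, n = 3 each), and the log2 fold change was 0.07 (SE 0.48; edgeR adjusted p = 0.919). The ratio of the summed counts, scaled to library totals, was 1.08 with an exact 95% binomial interval of 0.673 to 1.72, which covers counting error only. Differences inside that interval were not detectable at this depth, and given the spread between libraries larger ones may have been missed too. The sign of the estimate turned without parental-labelled 2 (-0.32) or KO-labelled 3 (-0.16) and with limma on log2(FPKM + 1) (-0.035). ZEB1-AS1, the antisense transcript next to ZEB1, was at 2.75 ± 0.244 and 3.17 ± 0.705 CPM, above ZEB1 itself in counts, and was not called (adjusted p = 0.434). Because the strand setting of the counting is not given, reads of a gene and of its antisense partner may not be separated here.

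Of the 7 tested regulators vimentin had the widest range among the KO-labelled populations. VIM was at 6.53, 6.67 and 7.72 CPM in parental-labelled 1, 2 and 3, and at 1.24, 3.96 and 7.64 CPM in KO-labelled 1, 2 and 3. KO-labelled 1 and 2 lay below every parental-labelled library and KO-labelled 3 lay inside the parental range, so the groups overlapped. The means were 6.97 ± 0.646 and 4.28 ± 3.21 CPM (SD, n = 3 each). The estimate of -0.70 on the log2 scale (SE 0.46) was not called (edgeR adjusted p = 0.258). Without KO-labelled 3 the log2 fold change was -1.41 and the gene was called (adjusted p = 0.00425), and without KO-labelled 1 it was -0.27 (adjusted p = 0.460).

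The counts of VIM in the KO-labelled populations were 33, 112 and 214. KO-labelled 3 was 6.14-fold above KO-labelled 1 (exact 95% binomial interval 4.25 to 9.16, counting error only), and KO-labelled 2 was 3.18-fold above KO-labelled 1 (2.14 to 4.85). With 1 library per population no test between populations exists. On the log2 CPM scale the range over the KO-labelled libraries was 2.55, a range that 72 of the 17420 tested genes (0.413%, VIM counted) reached or passed. Among 1399 tested genes within 0.5 log2 units of the average level of VIM, 10 had a range as wide or wider (VIM counted), and their median range was 0.42. The range over the parental-labelled libraries was 0.24. The antisense transcript VIM-AS1 had 12, 13 and 15 counts in parental-labelled and 6, 6 and 11 in KO-labelled libraries. Its log2 fold change of -0.73 (SE 0.33) was not called (adjusted p = 0.118).

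**Figure D2:**
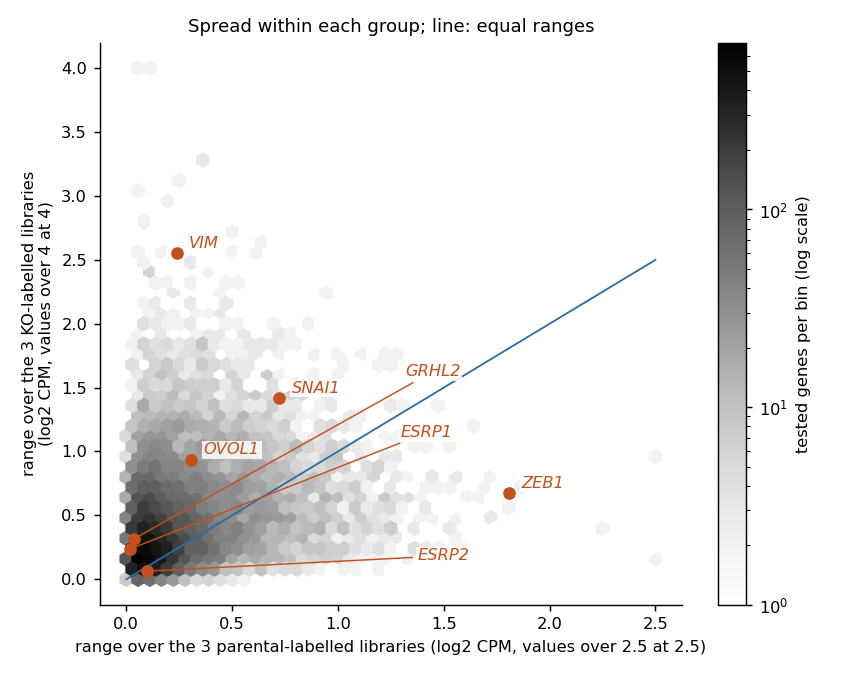
Range of log2 CPM over the 3 parental-labelled libraries (horizontal axis) and the 3 KO-labelled libraries (vertical axis) for all 17420 tested genes (grey bins, log colour scale) and the 7 regulators (orange). VIM lies far above the line of equal ranges, SNAI1 and OVOL1 lie above it, and ZEB1 and ESRP2 lie below it.

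Among the epithelial transcription factors, OVOL1 is a zinc finger repressor that opposes ZEB1 and other EMT factors. It was at 6.96, 6.28 and 7.78 CPM in parental-labelled 1, 2 and 3 and at 11.3, 16.8 and 8.75 CPM in KO-labelled 1, 2 and 3. Every KO-labelled library lay above every parental-labelled one, KO-labelled 3 by the smallest margin. The means were 7.01 ± 0.752 and 12.3 ± 4.11 CPM (SD, n = 3 each). OVOL1 was higher by 0.81 (SE 0.23) on the log2 scale (edgeR adjusted p = 0.0248). The direction was the same without each library in turn, and the smallest estimate was 0.51 without KO-labelled 2. The call was lost without parental-labelled 1, 2 or 3 (edgeR adjusted p = 0.0782, 0.0871 and 0.0588), where the log2 fold change was 0.80, 0.73 and 0.88. Over the whole table the count of called genes fell from 7105 to 4922, 4879 and 5263 in these settings. KO-labelled 2 was the highest KO-labelled population for both SNAI1 and OVOL1, and the lowest was KO-labelled 1 for SNAI1 and KO-labelled 3 for OVOL1.

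GRHL2, a grainyhead transcription factor that activates E-cadherin and other junction genes, was at 150, 152 and 148 CPM in parental-labelled 1, 2 and 3 and at 146, 117 and 145 CPM in KO-labelled 1, 2 and 3. The KO-labelled libraries lay below the parental ones without overlap, but KO-labelled 1 and 3 by a small margin. In FPKM the groups overlapped (25.5 to 28.9 against 21.5 to 27.5). The log2 fold change was -0.14 (SE 0.09), and the difference did not pass the test (edgeR adjusted p = 0.250). Among these populations KO-labelled 3 was 1.24-fold above KO-labelled 2 (exact 95% binomial interval 1.18 to 1.30, counting error only).

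The splicing factors ESRP1 and ESRP2, which favour epithelial exons in transcripts such as CD44 and FGFR2, did not share a call. ESRP2 was at 99.0, 106 and 105 CPM in parental-labelled 1, 2 and 3 and at 76.3, 79.8 and 78.7 CPM in KO-labelled 1, 2 and 3. The groups were well apart, and the 3 KO-labelled populations agreed within counting error, since each interval of a ratio between them included 1. The means were 103 ± 3.87 and 78.3 ± 1.76 CPM (SD, n = 3 each), or 0.757-fold, which is -0.40 (SE 0.06) on the log2 scale (edgeR adjusted p = 0.00188). This was the smallest adjusted p among the 7 regulators, and its log2 fold change ranged from -0.45 to -0.36 over all 17 alternative settings. The call was lost only against a minimum change of 1.5-fold (edgeR glmTreat).

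ESRP1 was at 194, 193 and 191 CPM in parental-labelled 1, 2 and 3 and at 184, 197 and 167 CPM in KO-labelled 1, 2 and 3. In CPM KO-labelled 2 lay above and KO-labelled 1 and 3 below the parental libraries. In FPKM KO-labelled 1 also lay above them (51.3 against 48.5 to 50.1). The log2 fold change was -0.08 (SE 0.07) and was not called (adjusted p = 0.438, edgeR). With limma on log2(FPKM + 1) the estimate had the other sign (0.0048). The FPKM ratio of ESRP1 to ESRP2 within a library was 1.32, 1.18 and 1.46 in parental-labelled and 1.99, 1.86 and 1.61 in KO-labelled libraries. The means of this ratio were 1.32 ± 0.139 and 1.82 ± 0.192 (SD, n = 3 each), the ranges did not overlap, and no test was run on it.

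**Figure D3:**
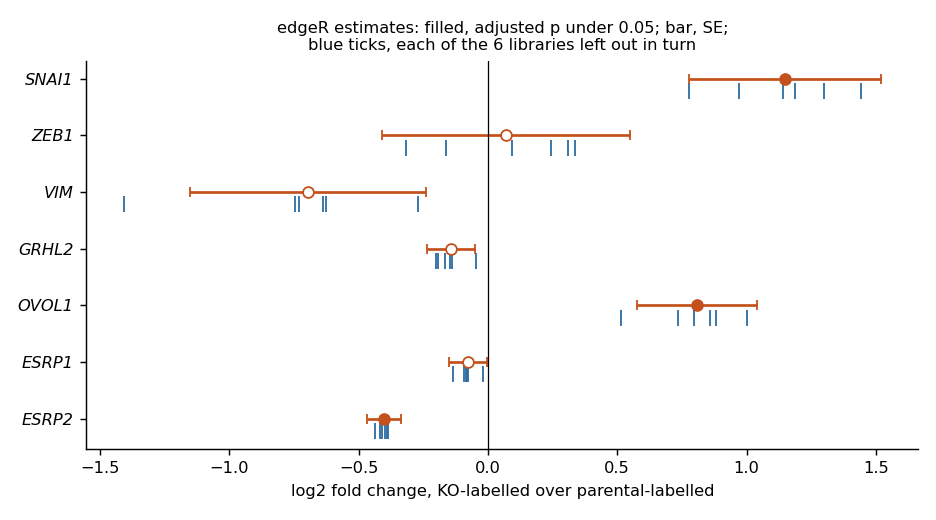
Log2 fold change of KO-labelled over parental-labelled libraries for the 7 tested regulators (edgeR), with the SE as a bar and, as blue ticks, the estimate with each of the 6 libraries left out. ESRP2 stays near -0.40, VIM moves between -1.41 and -0.27, and the ticks of ZEB1 fall on both sides of 0.

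Within the KO-labelled group 5 of the 7 regulators had a wider range of log2 CPM than in the parental-labelled group (71.4%), against 76.2% of all tested genes. The exceptions were ZEB1, whose parental-labelled range of 1.81 came from the 3 counts in parental-labelled 2, and ESRP2. On log2(FPKM + 1) 6 of the 7 were wider in the KO-labelled group, ZEB1 among them (0.125 against 0.110). SNAI1 had a KO-labelled range of 1.42, reached or passed by 3.64% of tested genes, and OVOL1 one of 0.94, reached or passed by 11.1%. Among genes within 0.5 log2 units of their average level these shares were 5.65% and 8.62%. The parental-labelled ranges of SNAI1 and OVOL1, 0.72 and 0.31, were reached or passed by 6.56% and 26.5% of tested genes. No KO-labelled population was high or low for every regulator: KO-labelled 2 was the highest of the 3 for SNAI1, OVOL1, ESRP1 and ESRP2, KO-labelled 3 for ZEB1 and VIM, and KO-labelled 1 for GRHL2. Some of these places lay within counting error. Every binomial interval of a ratio between these populations included 1 for ESRP2 and ZEB1. For GRHL2 the ratio of KO-labelled 3 to 1 was 0.995 (0.952 to 1.04).

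Chromosome neighbourhoods were compared next, with the order of genes from RefSeq (GRCh38.p14). Positions on that build served only to order the genes and none is given, since the submitters name hg19. SNAI1 on chromosome 20, OVOL1 on chromosome 11, ESRP2 on chromosome 16 and VIM on chromosome 10 lay among genes that did not shift together: the median log2 fold change of the 20 nearest tested genes was 0.09, 0.16, 0.04 and 0.00. GRHL2 on chromosome 8 had neighbours with a median of -0.27, of which 9 of 20 were called lower and 4 higher. The 4 include AZI1 (1.05), which was placed there by a synonym and may lie elsewhere, so these values are approximate. The neighbours of TWIST1 on chromosome 7 had a median of 0.49, with 10 of 20 called higher. Those of GPR52 on chromosome 1, with RALGPS2 among them, had a median of -0.46, with 12 of 20 called lower and 0 higher. Of all tested genes 21.0% were called higher and 19.8% lower. The neighbours of ZEB1 and ESRP1 had medians of 0.13 and -0.05. ESRP2 and CDH1, the E-cadherin gene, lie close together on chromosome 16, with 7 tested genes between them. Both were lower by a like amount (-0.40 and -0.42), while of the 7 between them 2 were called lower and 2 higher, and their median was -0.04.

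Genes that work with or downstream of the regulators were taken from 9 lists chosen with earlier results of these data known. Together the lists held 111 tested genes besides the regulators, of which 31 were called higher and 25 lower, or 50.5%, beside 40.8% of all tested genes.

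The list of other EMT-inducing factors held 10 tested genes, of which 6 were higher and 4 not called, with a median log2 fold change of 0.57. TCF3, which encodes the E proteins E12 and E47, rose from 96.1 ± 11.1 to 193 ± 9.57 CPM. The forkhead factor FOXQ1 rose from 11.2 ± 0.594 to 57.6 ± 10.6 CPM, and the zinc finger gene ZNF703 from 18.6 ± 1.35 to 43.6 ± 3.38 CPM. HMGA2, an architectural chromatin protein that can induce SNAI1, rose from 0.114 ± 0.104 to 4.89 ± 1.35 CPM (SD, n = 3 each). Its parental-labelled counts were 7, 2 and 1 against 89, 152 and 166, and its log2 fold change of 5.35 became 6.40 without parental-labelled 1. TWIST2, a paralogue of TWIST1, had 4, 5 and 5 counts in parental-labelled and 9, 24 and 35 in KO-labelled libraries and was not tested.

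Of the other epithelial-state regulators 3 of 13 tested genes were higher, 3 lower and 7 not called, with a median log2 fold change of -0.09. The ETS factors of epithelia split: EHF rose from 319 ± 22.5 to 676 ± 155 CPM and ELF5, which drives the alveolar lineage of the mammary gland, from 2.44 ± 0.122 to 7.69 ± 2.84 CPM, whereas ELF3 fell from 262 ± 8.24 to 187 ± 11.4 CPM. GRHL1, GRHL3 and OVOL2, the paralogues of GRHL2 and OVOL1, were not called. GRHL1 was at 0.18 (SE 0.10), GRHL3 at 0.08 (SE 0.11) and OVOL2 at -0.27 (SE 0.13) on the log2 scale.

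Epithelial junction and membrane genes included 9 lower, 2 higher and 9 not called of 20 tested, with a median log2 fold change of -0.23. CDH1 fell from 279 ± 12.9 to 209 ± 10.6 CPM, the tight junction gene CLDN7 from 136 ± 4.89 to 101 ± 4.85 CPM and the protease inhibitor SPINT2 from 361 ± 19.1 to 225 ± 4.98 CPM. CDS1, a CDP-diacylglycerol synthase, fell from 63.6 ± 2.11 to 34.1 ± 4.50 CPM. The epithelial adhesion molecule EPCAM went the other way, from 394 ± 2.78 to 541 ± 44.0 CPM, as did the polarity gene LLGL2, from 101 ± 8.94 to 171 ± 1.89 CPM (SD, n = 3 each). CLDN7 was not called with limma on log2(FPKM + 1).

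Mesenchymal effector genes did not move one way. Of 11 tested genes 2 were higher, 2 lower and 7 not called, with a median log2 fold change of 0.29. The called share of 36.4% was near the 40.8% of all tested genes. FBN1, which encodes fibrillin-1, rose from 0.799 ± 0.179 to 2.88 ± 0.972 CPM and the receptor tyrosine kinase AXL from 0.219 ± 0.0395 to 1.04 ± 0.860 CPM, both from low levels. NT5E, the ecto-nucleotidase CD73, fell from 62.6 ± 1.54 to 15.8 ± 11.2 CPM and the actin-binding TAGLN from 8.59 ± 0.129 to 5.08 ± 1.26 CPM (SD, n = 3 each). The call of AXL was lost without parental-labelled 1, 2 or 3 (largest adjusted p = 0.111). Over all 6 libraries the log2 fold change was 2.23 for AXL and -1.99 for NT5E. The balance of the list changed without KO-labelled 3: then 2 genes were called higher and 6 lower, the median turned to -0.48, AXL was at 1.30 and NT5E at -2.75. The number of called genes over the whole table also rose in that setting, from 7105 to 9367. With limma voom the median of the list was -0.02. N-cadherin (CDH2) had 2, 5 and 3 counts in parental-labelled and 0, 1 and 0 in KO-labelled libraries and was not tested.

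Of the 11 tested mesenchymal effectors 5 (45.5%) followed the order that VIM showed among the KO-labelled populations, lowest in 1 and highest in 3. Over all tested genes 20.4% had that order. Fibronectin (FN1) was at 52.1, 51.6 and 49.3 CPM in parental-labelled and 27.9, 45.4 and 69.2 CPM in KO-labelled 1, 2 and 3, and was not called (adjusted p = 0.791, edgeR). TGFBI, a secreted matrix protein, was at 17.6, 33.8 and 194 CPM in KO-labelled 1, 2 and 3 against 35.3 to 39.0 CPM in parental-labelled libraries, and tenascin (TNC) at 8.93, 12.1 and 52.6 CPM against 19.7 to 20.4 CPM. For FN1, TGFBI and TNC KO-labelled 1 lay below and KO-labelled 3 above every parental-labelled library. KO-labelled 3 was the highest of the 3 KO-labelled populations for 10 of the 11 tested mesenchymal effectors, all but TAGLN, and for 37.9% of all tested genes. Of the 20 epithelial junction and membrane genes it was the highest for 4. Summed fibroblast markers were at 24.6, 26.5 and 32.0 CPM in KO-labelled 1, 2 and 3, the same order as for VIM. The sum of epithelial markers also had that order, which came from EGFR at 4560, 4927 and 8307 CPM: the other 9 markers summed to 6812, 7804 and 7663 CPM. The part of either in the order of VIM was not tested. These orders were looked at after the values were seen, TGFBI and TNC were named for them, and no test was run.

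**Figure D4:**
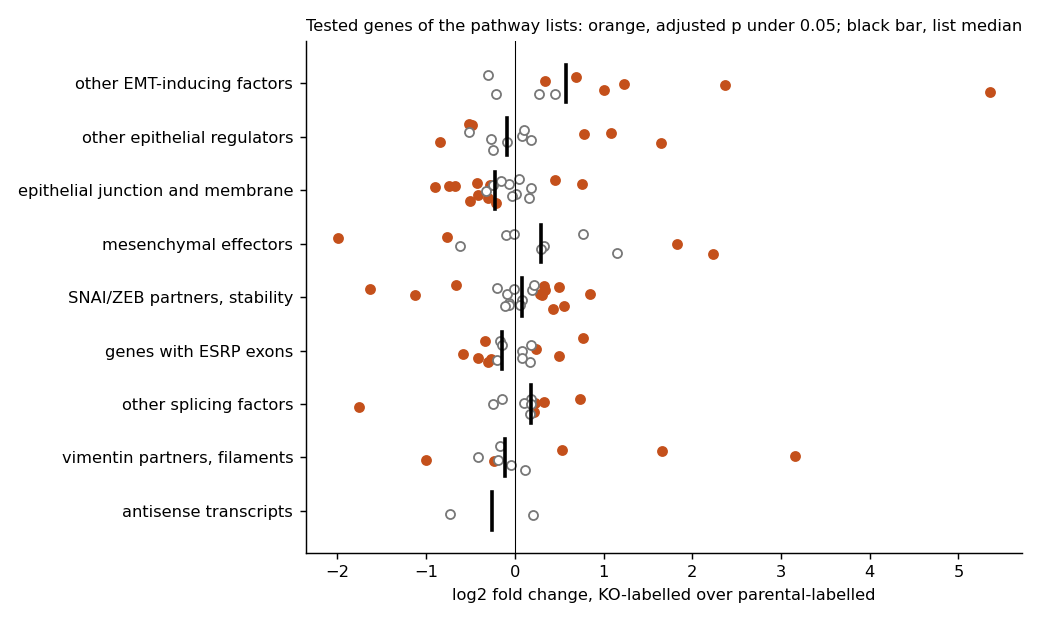
Log2 fold change of KO-labelled over parental-labelled libraries for the tested genes of the 9 pathway lists, with called genes in orange, genes not called in open grey and the list median as a black bar. Other EMT-inducing factors lie mostly above 0 (median 0.57), and epithelial junction and membrane genes mostly below it (median -0.23).

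Partners that SNAI and ZEB proteins recruit, and ligases and other factors that set their stability, included 8 higher, 3 lower and 10 not called of 21 tested genes, with a median log2 fold change of 0.08. FBXO11, a ubiquitin ligase subunit that targets SNAI proteins, rose from 86.4 ± 1.77 to 156 ± 5.12 CPM. SMARCA4, the BRG1 ATPase, was at 296 to 324 CPM in parental-labelled and 399 to 425 CPM in KO-labelled libraries and was called higher. Another ubiquitin ligase subunit, FBXW7, fell from 45.9 ± 1.61 to 29.0 ± 2.30 CPM, a call lost with limma on log2(FPKM + 1), and the deubiquitinase USP27X, which stabilises SNAI1, from 5.18 ± 0.496 to 1.67 ± 0.346 CPM (SD, n = 3 each).

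Genes with exons known to respond to ESRP proteins included 3 higher, 5 lower and 7 not called of 15 tested, with a median log2 fold change of -0.14. CD44 fell from 2139 ± 34.8 to 1428 ± 247 CPM and ENAH, an actin regulator, from 312 ± 10.6 to 235 ± 18.8 CPM. The Ral exchange factor gene RALGPS2 fell from 72.5 ± 3.28 to 58.7 ± 2.73 CPM. Its call was lost with limma on log2(FPKM + 1) and without parental-labelled 1 or 2. RALGPS2 is also among the 20 tested genes nearest GPR52, and the part of this in its fall was not tested. EXOC7, an exocyst subunit, rose from 126 ± 1.74 to 213 ± 11.7 CPM (SD, n = 3 each). The count of called genes fell from 8 to 3 without parental-labelled 1 or 2, to 5 without KO-labelled 2 and to 4 with limma on log2(FPKM + 1). Over the whole table the count fell from 7105 to 4922 and 4879, to 6102 and to 6020 in these settings. In the FPKM fit 2 genes of the list were called higher and 2 lower, and the median of the list turned to 0.11. The tables give 1 value per gene, so exon usage was not measured.

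Of other splicing factors 4 were higher, 1 lower and 6 not called of 11 tested genes, with a median log2 fold change of 0.18. QKI, which promotes mesenchymal exon choices and circular RNAs, fell from 98.9 ± 5.52 to 29.3 ± 4.23 CPM, a log2 fold change of -1.75 (SE 0.11) that ranged from -1.83 to -1.64 with each library left out. MBNL3 rose from 72.3 ± 6.41 to 120 ± 15.7 CPM, MBNL1 from 136 ± 7.39 to 171 ± 14.8 CPM and HNRNPM, a splicing factor that acts against ESRP1 on CD44, from 347 ± 7.10 to 404 ± 2.79 CPM (SD, n = 3 each). The calls of MBNL1 (without parental-labelled 1 or 3) and HNRNPM (without parental-labelled 1 or 2) were lost. The count of 5 called genes was 2 without parental-labelled 1, 3 without parental-labelled 2 and 9 without KO-labelled 3. Over the whole table the count of 7105 became 4922, 4879 and 9367 in the same settings.

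Among vimentin partners and other filament genes 3 were higher, 2 lower and 5 not called of 10 tested, with a median log2 fold change of -0.10. Nestin (NES), a filament protein that assembles with vimentin, rose from 0.237 ± 0.0787 to 2.08 ± 0.901 CPM, with 7, 8 and 5 counts against 31, 84 and 59. Synemin (SYNM), another such partner, rose from 34.9 ± 2.12 to 50.3 ± 6.08 CPM, and the galectin LGALS1 from 1.90 ± 0.129 to 6.00 ± 0.932 CPM. Moesin (MSN), which links actin to the membrane, fell from 354 ± 0.683 to 176 ± 52.4 CPM (SD, n = 3 each). Without KO-labelled 3 the calls were 4 higher and 5 lower, and with limma on log2(FPKM + 1) the median turned to 0.02. Called genes over the whole table numbered 9367 without KO-labelled 3, against 7105 with all 6 libraries. Over all lists the 34 called genes of the naming rule had adjusted p-values from 1.9e-05 to 0.0327 (edgeR).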

How the data were processed

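The authors deposited raw counts and FPKM values per gene symbol for 6 libraries made with a poly(A) module and a directional kit, per the labels' protocols. Per the submitters' processing notes the build was hg19 and the tools were Cufflinks 2.0.2, SAMtools 0.1.19 and STAR 2.4.0f1, with no role stated. Not given in the sources used here are the annotation, the counter, its strand setting and any filter.

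Counts of the whole table were fitted with edgeR 4.0.16 (R 4.3.3; filterByExpr with minimum count 10 and minimum total 15, TMM, quasi-likelihood F test, no covariate), with Benjamini-Hochberg adjustment over 17420 genes and a threshold of 0.05. The SE is the size of the log2 fold change over the square root of F. CPM used TMM library sizes, and log2 CPM a prior count of 2. FPKM values were tested with limma 3.58.1 on log2(FPKM + 1) for genes at 0.1 FPKM or more in 3 libraries, a scale that understates changes of low genes. Positions were found by symbol or synonym for 85.0% of tested genes, and a synonym can point to another gene. Simulated data with known changes were used to test the edgeR steps. They had equal spread in both groups, so they do not cover the wider spread among the KO-labelled libraries.

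Alternatives were other scalings and filters, DESeq2 1.42.0, limma voom, FPKM fits, glmTreat against a 1.5-fold change and leaving out each library. No label pairs the groups. The members and lists were chosen with earlier results of these data known. Text names all members, up to 4 called genes of each list by smallest p, CDH1, EPCAM, CDH2 and FN1, and genes most like VIM, except a few that are not reported here; others (GRHL1, GRHL3, OVOL2, TWIST2, TGFBI, TNC and marker genes) were named after their values were seen.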

Additional observations from a re-analysis of the deposited data

How the results depend on the processing

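The number of regulators called was 3 with all 6 libraries and 1 to 4 with a library left out. It was 1 (ESRP2) with the filter at 10 CPM in 3 libraries, which tests only GRHL2, ESRP1 and ESRP2. With glmTreat against a 1.5-fold change 0 regulators were called (1 at an unadjusted p under 0.05, SNAI1), 1922 of all genes and 17 of the pathway list genes. Leaving out a library gave 4879 to 9367 called genes in all, 41 to 77 called pathway list genes, and 3 to 4 regulators whose groups did not overlap.

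ZEB1 changed sign with limma on log2(FPKM + 1) (-0.035) and log2(FPKM + 0.1) (-0.19), and over the libraries left out ran from -0.32 to 0.34. ESRP1 was at 0.0048 in each of the 3 FPKM fits. The other regulators kept their direction in every alternative that tested them. ESRP2 stayed called in 16 of 17 alternatives (not with glmTreat), OVOL1 in 12 of 16 and SNAI1 in 7 of 16, and VIM was called in 1 of 16, without KO-labelled 3. With each library left out in turn 30 of the 34 called list genes that follow the naming rule stayed called, and none of the 34 changed sign in any alternative. Depth limits ZEB1, with 39 counts per group, and TWIST1.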

Other observations

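The genes whose log2 CPM followed VIM most closely over the 6 libraries were ranked by Pearson's r among 12148 tested genes with an average log2 CPM of at least 2. The points share library, depth and the 2 groups, so the values are a description. The closest were MAFF, a small MAF transcription factor (r = 0.996), VASP, an actin-assembly protein (0.994), the pseudogene NHP2P1 (0.993), the ribosomal protein gene RPL35A (0.993) and the glycolytic enzyme gene ALDOA (0.993). Among the most opposite were SOS1-IT1 (-0.995), the small GTPase DIRAS3 (-0.989), EPB41L4A (-0.988) and the sorting nexin SNX11 (-0.987). The sizes were far apart: ALDOA was at 707, 978 and 1123 CPM in KO-labelled 1, 2 and 3, against 1047 to 1143 CPM in parental-labelled libraries. MAFF was at 8.97, 13.5 and 17.7 CPM against 15.9 to 16.9 CPM. Counts of NHP2P1 are uncertain where reads also match its parent gene. The adjusted p of the genes named here lay between 0.126 and 0.433 (edgeR), so none was called.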
